A study of Mus musculus with 15 samples.

Results

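The integrin alpha and beta chain genes of mouse MLL-ENL–transformed cells were followed by RNA-seq in cells that had or lacked C/EBPα and C/EBPβ. The set was drawn up by gene name and covers the alpha chains Itga4, Itga5, Itga6, Itgal, Itgam and Itgax and the beta chains Itgb1, Itgb2, Itgb3 and Itgb7, which are 10 of the 53379 genes in the deposited table and all 10 of which were among the 12673 genes tested. The question the study put to these cells was what the loss of both C/EBP factors, and the return of 1 of them, does to the transformed myeloid state. Fetal liver cells of Cebpa fl/fl/Cebpb fl/fl mice were transformed with a retrovirus that carries the fusion oncogene MLL-ENL, and the parental lines with intact floxed alleles are called WTFL (wild-type in the labels, WT in the plots). The Cebpa/Cebpb dKO lines were made from these with Cre recombinase and are rare surviving clones that carry an exogenous GFP vector, whereas dKO-LAP* cells carry GFP and the longest form of rat C/EBPβ, LAP*. The labels list no GFP for WTFL cells, so the vector and the deletion cannot be told apart in a comparison of dKO with WTFL cells. The 2 parental clones, C1 and C2, came from different mice and each gave WTFL and dKO cells, and LAP* cells are analysed from C1 only, so the LAP* comparisons rest on 1 clone. Each of the 5 groups has 3 libraries, made from RNA samples of 1 line taken at different times, so that the spread is between samplings of a line and not between independent clones or animals. All lines grew in IL-3 at 10 ng/ml.

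The libraries held 9212237 to 13613500 reads on genes (median 11885279), and values below are normalized reads, that is reads divided by 1 size factor per library. Cebpa and Cebpb had no read in any dKO library, against 903 to 1437 and 1394 to 1559 normalized reads in the WTFL libraries of C1 and 1653 to 2267 and 1353 to 1634 in those of C2. In LAP* cells the Cebpb row ran from 2537.5 to 4216 normalized reads, in cells whose mouse Cebpb is deleted and that carry the rat sequence. Gene calls across the whole table leaned toward lower values in dKO cells of C1, with 46.3% of calls higher, and quantile normalization turned this split to 56.6%. For LAP* against WTFL cells the share of calls that were higher was 43.6%, and 56.9% after quantile normalization. The balance also turned for dKO cells of C2 (46.4% to 51.3%), for the difference of the dKO effect between clones (51.3% to 47.7%) and for WTFL cells of C2 against those of C1 (48.0% to 54.8%).

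Integrins are receptors of 1 alpha and 1 beta chain that tie a cell to matrix and to other cells, and each chain reaches the surface only with a partner. The beta1 chain pairs with alpha4, alpha5 and alpha6 to bind VCAM-1, fibronectin and laminin, and hematopoietic stem and progenitor cells use such pairs to lodge in the marrow and the fetal liver. The beta2 chain pairs with alphaL, alphaM and alphaX to form LFA-1, Mac-1 (CD11b/CD18) and CD11c/CD18, which are restricted to leukocytes, Mac-1 being the pair that rises as myeloid cells mature. The beta7 chain pairs with alpha4 to bind MAdCAM-1 and is prominent on lymphocytes, mast cell progenitors and eosinophils, and the beta3 chain pairs with alphaV and, in megakaryocytes and platelets, with alphaIIb.

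Promoter sequences are shown because the factors removed in this study act on DNA. RefSeq promoter windows (GRCm38.p6, which is mm10), running from 250 bases before the start to 50 after it, were matched for 6 of the 10 genes, namely Itga4, Itga5, Itgam, Itgax, Itgb1 and Itgb7. The 4 of them whose calls had 1 direction over both clones are printed here up to base 30 after the start, 5′ to 3′ on the strand of the gene. Capitals mark matches to the PU.1-type letters GAGGAA or to the RUNX-type letters TGTGGT, and a PU.1-type match on the opposite strand reads as TTCCTC.
Itgb7, which rose, chr15:102231906-102232185, minus strand: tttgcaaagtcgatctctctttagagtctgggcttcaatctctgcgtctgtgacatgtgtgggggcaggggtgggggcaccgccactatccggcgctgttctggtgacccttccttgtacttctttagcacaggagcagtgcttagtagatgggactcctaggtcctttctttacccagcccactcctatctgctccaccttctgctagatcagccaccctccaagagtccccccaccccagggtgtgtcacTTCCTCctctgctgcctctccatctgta
Itgax, which rose, chr7:128129300-128129579, plus strand: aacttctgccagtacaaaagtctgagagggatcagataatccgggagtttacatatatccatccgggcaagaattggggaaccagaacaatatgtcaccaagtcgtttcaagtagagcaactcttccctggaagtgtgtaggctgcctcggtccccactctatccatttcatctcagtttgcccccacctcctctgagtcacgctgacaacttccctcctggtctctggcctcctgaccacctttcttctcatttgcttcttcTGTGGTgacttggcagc
Itga5, which fell, chr15:103366762-103367041, minus strand: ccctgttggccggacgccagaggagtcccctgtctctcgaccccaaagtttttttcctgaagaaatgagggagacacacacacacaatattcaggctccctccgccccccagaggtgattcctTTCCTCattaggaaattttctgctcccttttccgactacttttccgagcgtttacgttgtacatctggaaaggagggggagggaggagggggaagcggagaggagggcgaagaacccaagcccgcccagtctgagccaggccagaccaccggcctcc
Itgb1, which fell, chr8:128685404-128685683, plus strand: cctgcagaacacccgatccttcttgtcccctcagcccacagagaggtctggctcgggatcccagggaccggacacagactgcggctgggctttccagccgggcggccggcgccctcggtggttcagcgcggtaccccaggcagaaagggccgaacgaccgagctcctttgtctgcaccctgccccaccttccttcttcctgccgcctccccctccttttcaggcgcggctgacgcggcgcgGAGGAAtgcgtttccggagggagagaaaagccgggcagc

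The C/EBP-type letters TTGCNNAA, searched on both strands, had no match in the 6 windows, and 10.8% of the 32851 RefSeq windows of the same length have one. Each printed window held 1 match in all. The PU.1-type match began at base 3 after the start in Itgb7, 127 bases before it in Itga5 and 9 bases before it in Itgb1, and the RUNX-type match began at base 14 after the start in Itgax. Itgam held 3 PU.1-type matches and Itga4 held 1 RUNX-type match. Among all windows, 28.3% held GAGGAA and 16.8% held TGTGGT, so these letters are common. A match describes letters and says nothing on binding.

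Levels between genes were compared as normalized reads per kb of exon that no other gene shares on the same strand. Itgb2, the common beta chain of the leukocyte integrins, had the highest level in all 5 groups, with 2545 ± 269 normalized reads per kb in WTFL cells of C1 (mean ± SD of 3 libraries, as in all values below) and 3512 ± 526 in those of C2. Itgb1 and Itgam took ranks 2 and 3 in every group. Itgax, the CD11c chain, had the lowest mean in all 5 groups, at 0.627 ± 0.305 per kb in WTFL cells of C1 and 16.5 ± 6.71 in dKO cells of C1. Its libraries overlapped those of the gene ranked above it in WTFL cells (Itgb7) and dKO cells (Itgal) of C2. The middle of the order is close too: in WTFL cells of C1 the libraries of Itga5, Itga4, Itgal and Itgb3 overlapped from each rank to the next. Itgam is uncertain on this scale, because 68.7% of its 5024 exonic bases are shared on the same strand with Gm49368, a row of the table with at most 11.8 normalized reads, and only the other 1574 bases were counted as its length. The mode and the strand setting of the read counting are not given in the sources used here. Exons of Itga4 overlap those of Cerkl on the opposite strand, and Cerkl had at most 2.1 normalized reads in any library.

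**Figure D1:**
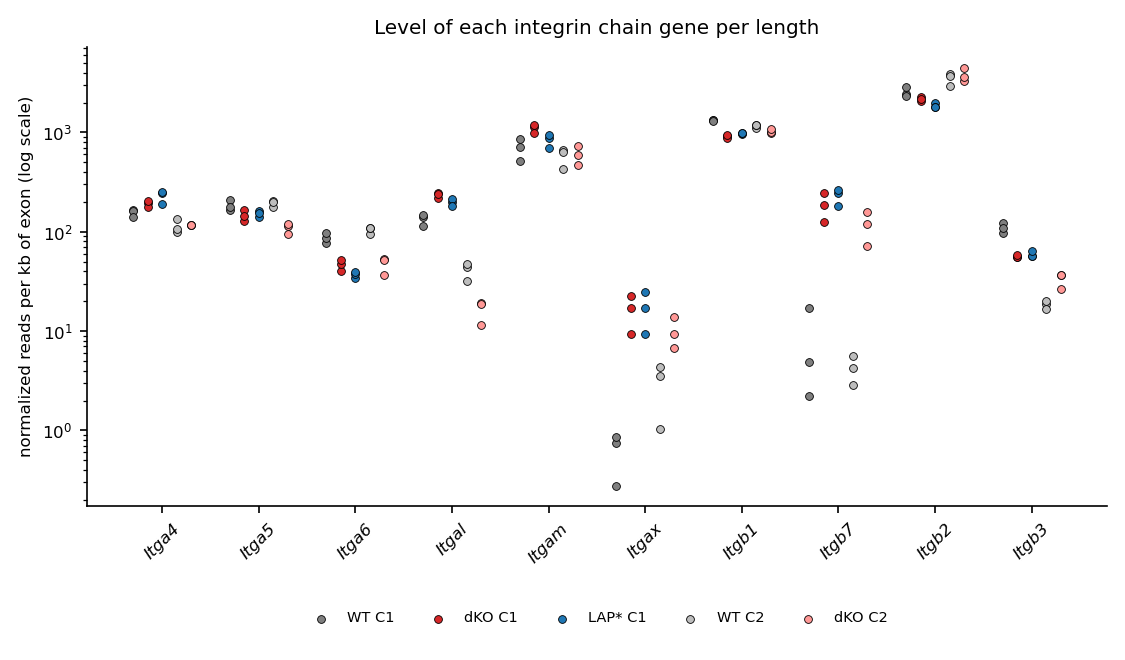
Normalized reads per kb of exon (log scale) of the 10 integrin genes in each of the 15 libraries, coloured by group. Itgb2 lies highest in every group, and the WTFL points of Itgb7 and Itgax lie below their dKO points in both clones, with a narrow gap for Itgax in C2.

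Between dKO and WTFL cells the integrin chains differed in both directions. In C1, 4 of the 10 genes were called higher in dKO cells (Itgb7, Itgax, Itgal and Itgam) and 4 lower (Itgb3, Itga6, Itgb1 and Itga5), where 37.0% of all genes tested were called, 17.1% higher and 19.9% lower. In C2, 3 were called higher (Itgb7, Itgax and Itgb3) and 4 lower (Itgal, Itga6, Itga5 and Itgb1), where 37.6% of genes were called, 17.4% higher and 20.1% lower. A call is a Benjamini-Hochberg adjusted p under 0.05 by limma on log2(normalized reads + 1). Of the 10 genes, 5 were called the same way in both clones, with Itgb7 and Itgax higher and Itga5, Itga6 and Itgb1 lower, against 14.1% of all genes. Without a filter on low values 1 gene was lower in both clones (Itga6), and without WTFL replicate 1 of C2 1 gene was higher in both (Itgb7). Itgal and Itgb3 were called in opposite directions in the clones, that is 2 of 10 against 4.1% of all genes. The median log2 fold change over the 10 genes was 0.04 in C1 and 0.05 in C2, beside -0.01 and -0.03 over all genes tested. In bulk RNA, fewer cells that use a gene and less RNA per cell cannot be told apart.

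**Figure D2:**
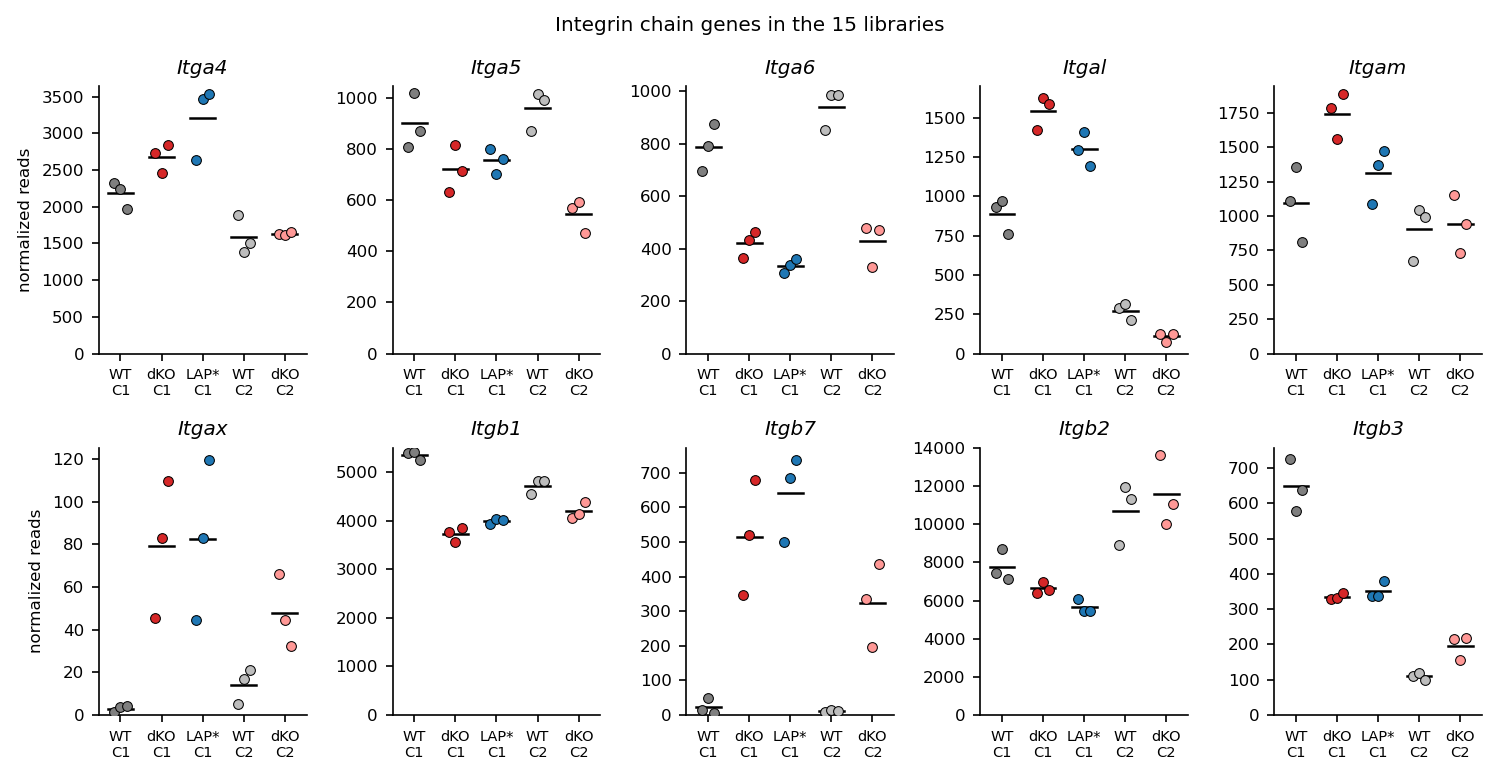
Normalized reads of each of the 10 integrin genes (a linear axis from 0 for each gene) in the 3 libraries of WTFL, dKO and LAP* cells of C1 and of WTFL and dKO cells of C2, with a line at each group mean. The dKO and WTFL points of Itgb7, Itgax and Itga6 do not overlap in either clone, and those of Itgal and Itgb3 part in opposite directions.

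Itgb7 (chr15:102215995-102231944, minus strand; mm10 coordinates of the whole gene from GENCODE vM21, as for the genes below), the beta7 chain, had the largest rise among the 10 genes in both clones on the scale of log2(normalized reads + 1). In C1 its lead over Itgax (4.31 ± 0.50) depends on that scale. Mean normalized reads there went from 22.4 to 515.5 for Itgb7 and from 3.01 to 79.2 for Itgax. The 3 WTFL libraries of Itgb7 held 13.4, 47.8 and 6.11 normalized reads in C1 and 7.97, 15.7 and 11.9 in C2. The dKO libraries held 348, 520.2 and 679 in C1 and 335, 197 and 438 in C2. Every dKO library thus lay above every WTFL library of either clone, and the WTFL libraries of C1 were themselves uneven. The log2 fold change was 4.87 ± 0.51 in C1 (± SE, as for all fold changes here; limma adjusted p = 1.8e-06) and 4.63 ± 0.51 in C2 (limma adjusted p = 3.6e-06). The C1 value was 5.62 without WTFL replicate 2 and 4.23 without WTFL replicate 3. The effects in the clones differed by -0.24 ± 0.72, which did not pass the test (limma adjusted p = 0.84). In the order of levels per kb, Itgb7 stood at rank 9 in WTFL cells of both clones, at rank 6 in dKO cells of C1 and at rank 5 in those of C2, where its libraries overlapped those of Itga4 and Itga5 in both dKO groups. Without division by length it stood at rank 7 in both dKO groups.

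Itga4 (chr2:79255426-79333123, plus strand), the alpha4 chain that pairs with beta7 and beta1, did not pass the test in either clone. It held 2329, 2247 and 1969 normalized reads in the WTFL libraries of C1 and 2727, 2453 and 2842 in its dKO libraries, which do not overlap. In C2 the WTFL libraries held 1891, 1385 and 1504 and the dKO libraries 1634, 1616 and 1649.7, which lie inside the WTFL range. Its log2 fold change was 0.29 ± 0.12 in C1 (limma adjusted p = 0.067) and 0.05 ± 0.12 in C2 (limma adjusted p = 0.79). Quantile normalization and a fit of only the 2 groups compared each called the C1 value (limma adjusted p = 0.013 and 0.0496).

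Itgb1 (chr8:128685654-128733200, plus strand), the beta1 chain shared by many adhesion receptors, fell in dKO cells of C1 and less in those of C2. The WTFL libraries held 5408, 5419 and 5263 normalized reads in C1 and the dKO libraries 3761, 3557 and 3855. In C2 the WTFL libraries held 4544, 4814 and 4825 and the dKO libraries 4049.7, 4151 and 4383. The groups do not overlap in either clone, though in C2 the gap is narrow. On the log2 scale the change was -0.53 ± 0.06 in C1 (limma adjusted p = 3.0e-06) and -0.17 ± 0.06 in C2 (limma adjusted p = 0.027). The C2 call was lost without a filter on low values (limma adjusted p = 0.069) and when WTFL replicate 2 or 3 or dKO replicate 1 or 2 of C2 was left out (limma adjusted p up to 0.094). The effects differed between the clones by 0.35 ± 0.08 (limma adjusted p = 0.0039), a call that quantile normalization lost (limma adjusted p = 0.057).

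Since alpha4 can pair with either beta chain, the share of Itgb7 in the sum of Itgb1 and Itgb7 per kb describes the balance of the RNA. It was 0.606 ± 0.594% in WTFL cells and 16.8 ± 4.38% in dKO cells of C1, and 0.366 ± 0.111% and 10.1 ± 3.21% in those of C2. Itgb1 remained the larger of the pair in every group. The share rests on the same values as the fold changes above and was not tested separately.

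**Figure D3:**
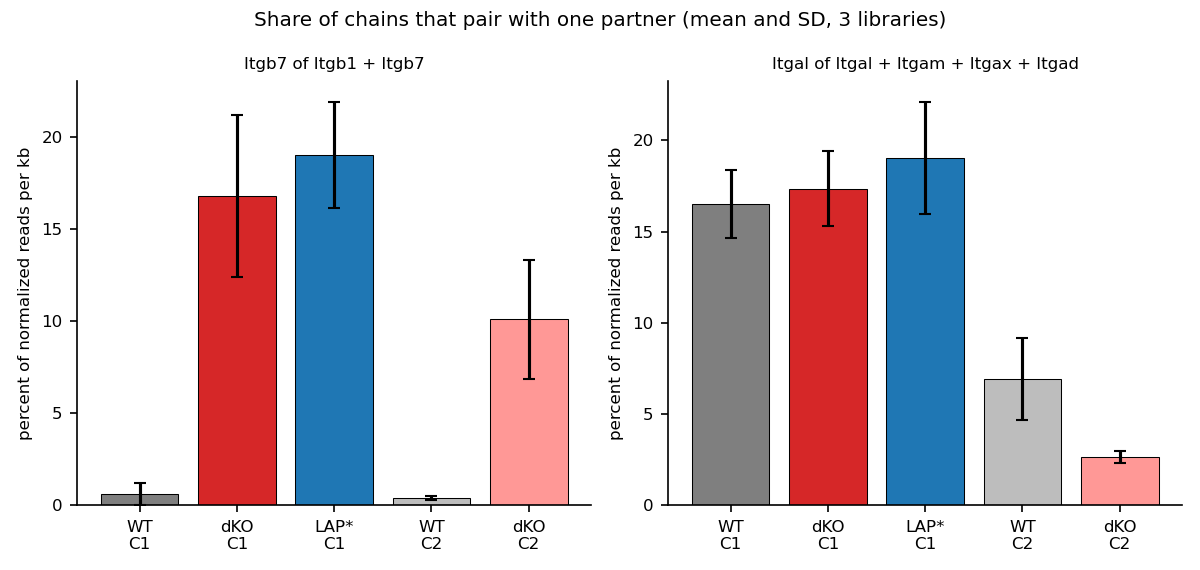
Left, Itgb7 as a percent of the sum of Itgb1 and Itgb7; right, Itgal as a percent of the sum of Itgal, Itgam, Itgax and Itgad, both in normalized reads per kb (bars are means and whiskers SD of 3 libraries per group). The Itgb7 share lies between 10.1% and 19.0% in the 3 groups without Cebpa and endogenous Cebpb and at 0.606% and 0.366% in WTFL cells of C1 and C2, whereas the Itgal share sets C1 apart from C2.

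The alpha chains of the fibronectin and laminin receptors both fell. Itga6 (chr2:71745616-71858416, plus strand), whose product binds laminin with beta1, held 697, 789 and 875 normalized reads in the WTFL libraries of C1 and 364, 431 and 465 in its dKO libraries. In C2 it held 851, 986 and 986 in WTFL and 480.2, 331 and 471 in dKO libraries. No dKO library reached any WTFL library. The log2 fold change was -0.91 ± 0.14 in C1 (limma adjusted p = 8.3e-05) and -1.15 ± 0.14 in C2 (limma adjusted p = 8.8e-06), and the difference between the clones did not pass the test (-0.25 ± 0.20; limma adjusted p = 0.38).

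Itga5 (chr15:103344286-103366763, minus strand), whose product binds fibronectin with beta1, fell in both clones, more in C2. The WTFL libraries of C2 held 871, 1014 and 992 normalized reads and the dKO libraries 570.2, 592 and 472. In C1 the WTFL libraries held 808, 1018 and 871 and the dKO libraries 629.7, 816 and 713, where dKO replicate 2 lay above WTFL replicate 1. On the log2 scale Itga5 changed by -0.82 ± 0.11 in C2 (limma adjusted p = 4.2e-05) and -0.32 ± 0.11 in C1 (limma adjusted p = 0.038). The C1 call was lost without a filter on low values, with quantile normalization and with only the 2 groups fitted (limma adjusted p up to 0.10), and when WTFL replicate 2 or 3 or dKO replicate 1 or 3 was left out (up to 0.16). The difference between the clones was -0.50 ± 0.16 (limma adjusted p = 0.031) and was lost in 7 of the fits that left out 1 library, namely WTFL 1 or 3 or dKO 2 or 3 of C1, or WTFL 2 or 3 or dKO 3 of C2 (up to 0.089).

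**Figure D4:**
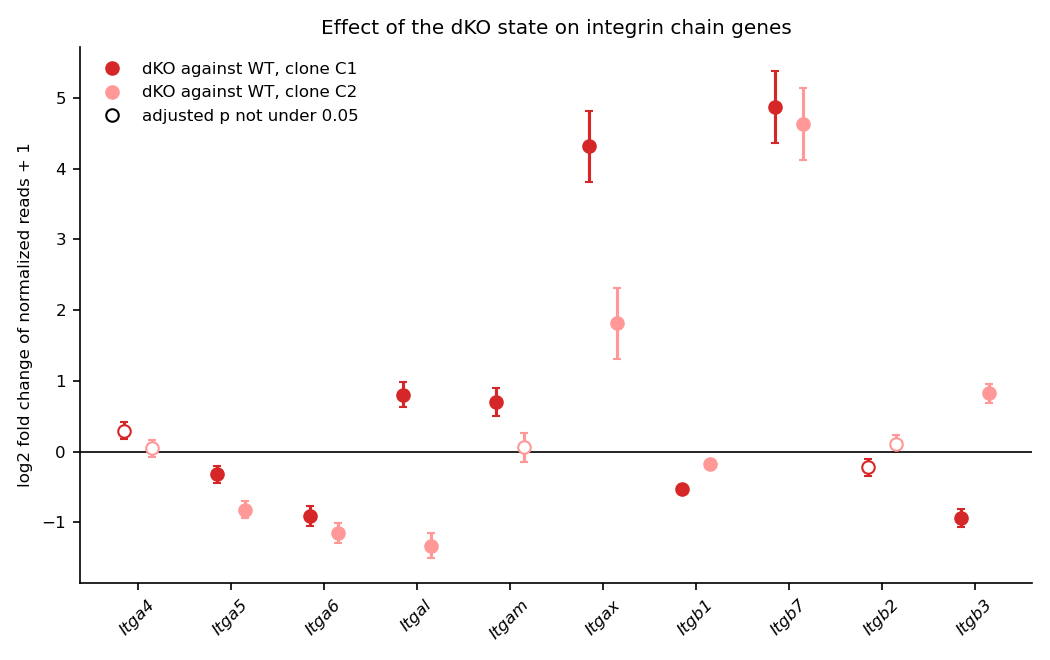
Log2 fold change of normalized reads + 1 in dKO against WTFL cells for the 10 integrin genes, by clone, with SE as whiskers; filled points have a limma adjusted p under 0.05. Itgb7 and Itgax stand far above 0 in both clones, and the points of Itgal and Itgb3 lie on opposite sides of 0.

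Of the leukocyte integrins, the alphaX chain rose in both clones, the alphaL chain moved in opposite directions and the common beta2 chain did not pass the test. Itgax (chr7:128129547-128150657, plus strand) held 1.34, 3.61 and 4.08 normalized reads in the WTFL libraries of C1, which are 1 to 4 reads, and 45.3, 82.9 and 109 in its dKO libraries. In C2 the WTFL libraries held 4.98, 16.8 and 21.1 and the dKO libraries 65.9, 44.7 and 32.2. The groups do not overlap in either clone. The log2 fold change was 4.31 ± 0.50 in C1 (limma adjusted p = 5.5e-06) and 1.81 ± 0.50 in C2 (limma adjusted p = 0.0097), on a scale that understates the change of genes with so few reads. Without WTFL replicate 1 of C2 the C2 call was lost (limma adjusted p = 0.056). The effect was larger in C1, with a difference of -2.50 ± 0.71 (C2 minus C1; limma adjusted p = 0.014), and the WTFL cells differed too, with more Itgax in C2 (1.81 ± 0.50; limma adjusted p = 0.0088), a call lost without WTFL replicate 3 of C2 (limma adjusted p = 0.051).

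Itgal (chr7:127296260-127335138, plus strand), the alpha chain of LFA-1, held 931, 967 and 759 normalized reads in the WTFL libraries of C1 and 1420.2, 1624 and 1585 in its dKO libraries. In C2 it held 289.8, 314 and 211 in WTFL and 126, 75.8 and 124 in dKO libraries. All C1 libraries lay above all C2 libraries, and within each clone the dKO and WTFL libraries part completely, upward in C1 and downward in C2. In log2 terms the change was 0.81 ± 0.18 in C1 (limma adjusted p = 0.0020) and -1.33 ± 0.18 in C2 (limma adjusted p = 2.6e-05), and their difference was -2.14 ± 0.25 (limma adjusted p = 1.4e-05). WTFL cells of C2 already had less Itgal than those of C1 (-1.72 ± 0.18; limma adjusted p = 1.1e-06).

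Itgam (chr7:128062640-128118491, plus strand), the CD11b chain of Mac-1, passed the test in C1 and not in C2. Its WTFL libraries held 1112, 1359 and 812 normalized reads in C1 and its dKO libraries 1788, 1558 and 1885, with no overlap. In C2 the WTFL libraries held 676, 1046 and 989 and the dKO libraries 1152, 732 and 942, with overlap. The change on the log2 scale was 0.70 ± 0.20 in C1 (limma adjusted p = 0.013; without WTFL replicate 3, 0.061) and 0.06 ± 0.20 in C2 (limma adjusted p = 0.84). The difference between the clones was -0.64 ± 0.29 and did not pass the test (limma adjusted p = 0.11), so the clones were not shown to differ. It passed without WTFL replicate 2 of C1 (limma adjusted p = 0.043) or WTFL replicate 1 of C2 (limma adjusted p = 0.034). Gm49368, which shares exons with Itgam, went from 2.22 ± 1.95 to 8.27 ± 2.26 normalized reads in C1. By flow cytometry the study found less CD11b reactivity in dKO cells than in WTFL cells. That is a measure of protein, and the values here are RNA.

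Itgb2 (chr10:77530252-77565708, plus strand), the partner of these 3 alpha chains, held 7463, 8697 and 7141 normalized reads in WTFL and 6378, 6980.4 and 6580.4 in dKO libraries of C1. In C2 it held 8897, 11934 and 11323 in WTFL and 13621, 10031 and 11078 in dKO libraries. The C1 groups part narrowly and the C2 groups overlap. Its log2 fold change was -0.22 ± 0.12 in C1 (limma adjusted p = 0.17) and 0.11 ± 0.12 in C2 (limma adjusted p = 0.50). Among the alpha chains that pair with beta2, Itgam held the largest share of the RNA per kb in every group, from 79.1% to 95.5%, and Itgal held 16.5 ± 1.86% in WTFL and 17.4 ± 2.05% in dKO cells of C1, and 6.92 ± 2.25% and 2.63 ± 0.351% in those of C2. These shares carry the uncertainty of the length used for Itgam.

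Itgb3 (chr11:104608000-104670476, plus strand), the beta3 chain, was called in opposite directions, as Itgal was. It held 727, 578 and 639 normalized reads in WTFL and 328, 331 and 347 in dKO libraries of C1. In C2 it held 112, 118 and 98.9 in WTFL and 216, 156 and 218 in dKO libraries. The dKO libraries of C1 lay below their WTFL libraries and those of C2 above theirs, and both dKO groups lay between the 2 WTFL groups. The log2 fold change was -0.94 ± 0.13 in C1 (limma adjusted p = 3.3e-05) and 0.82 ± 0.13 in C2 (limma adjusted p = 0.00013), with a difference of 1.76 ± 0.18 (limma adjusted p = 4.7e-06). WTFL cells of C2 had less Itgb3 than those of C1 (-2.55 ± 0.13; limma adjusted p = 3.8e-10).

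In all, the dKO effect differed between the clones for 5 of the 10 genes (Itga5, Itgal, Itgax, Itgb1 and Itgb3), where 29.4% of genes tested were called (15.1% higher and 14.3% lower). The WTFL cells of the clones differed in 6 of the 10, where 41.0% of genes were called (19.7% higher and 21.3% lower). Itgb2 (0.46 ± 0.12; limma adjusted p = 0.0063) and Itgax were higher in C2. Itga4 (-0.46 ± 0.12; limma adjusted p = 0.0058), Itgb1 (-0.18 ± 0.06; limma adjusted p = 0.019), Itgal and Itgb3 were lower, and the call of Itgb1 was lost without WTFL replicate 1 of either clone (limma adjusted p = 0.053 and 0.077). This comparison uses the same WTFL libraries as the dKO comparisons do.

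Markers of more mature myeloid cells moved in the same libraries. Of 9 mast cell and basophil markers, 5 were tested, and in C1 all 5 were called higher in dKO cells. Their summed level was 104 to 144 normalized reads in WTFL and 2894 to 3305 in dKO libraries, with Tpsb2 at 0 in dKO cells. In C2, 3 of the 5 were called higher and 1 lower, at 180.5 to 192 and 976 to 1379, with Fcer1a, Tpsb2 and Prss34 at 0 in dKO cells. Of 8 eosinophil markers, 6 were tested, and all 6 were called higher in C1, with sums of 98.8 to 123 in WTFL and 8393 to 15795 in dKO libraries. In C2 5 were called higher, with sums of 13.6 to 21.1 and 272 to 379.7 and Ccr3 at 0 in dKO cells.
All 8 neutrophil markers were called higher in C1, with sums of 21565 to 28456 normalized reads in WTFL and 88268 to 110646 in dKO libraries. In C2 2 were called higher and 2 lower, with sums of 50704 to 91146 and 57822 to 90851. By flow cytometry, which scores protein, the study could derive no Ly6G+ neutrophils from dKO cells, whereas these markers are RNA. The 8 monocyte and macrophage markers, 7 of them tested, gave 7 lower calls in C1, with sums of 29389.9 to 40739 in WTFL and 19442 to 22226 in dKO libraries, and 3 lower and 2 higher calls in C2. Of 5 dendritic cell markers only Flt3 was tested; it was called higher in both clones, and Cd209a and Siglech were at 0 in every group. The part of these cell types in the integrin values was not tested.
Myeloid progenitor markers were abundant in every group, with sums of 100984 to 102767 normalized reads in WTFL and 175088 to 202151 in dKO libraries of C1, where 5 of 8 were called higher. In C2 the sums were 101742 to 106868 and 142083 to 167250.0, with 6 called higher and 1 lower. Of 8 megakaryocyte and platelet markers, which include Itga2b, 5 were tested, with 2 higher and 3 lower calls in C1 and 1 of each in C2. The 7 T cell markers summed to at most 11.5 normalized reads in any library, with Cd4, Cd8a, Trbc1 and Trbc2 at 0 in every group. The 5 B cell markers summed to 89.3 to 117 in WTFL and 0.880 to 3.40 in dKO libraries of C1, with 1 tested and called lower in both clones. Of 5 hepatocyte markers 1 was tested and called lower in both clones, and Alb was at 0 in every group, while none of the 7 erythroid and 5 endothelial and stromal markers was tested.

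**Figure D5:**
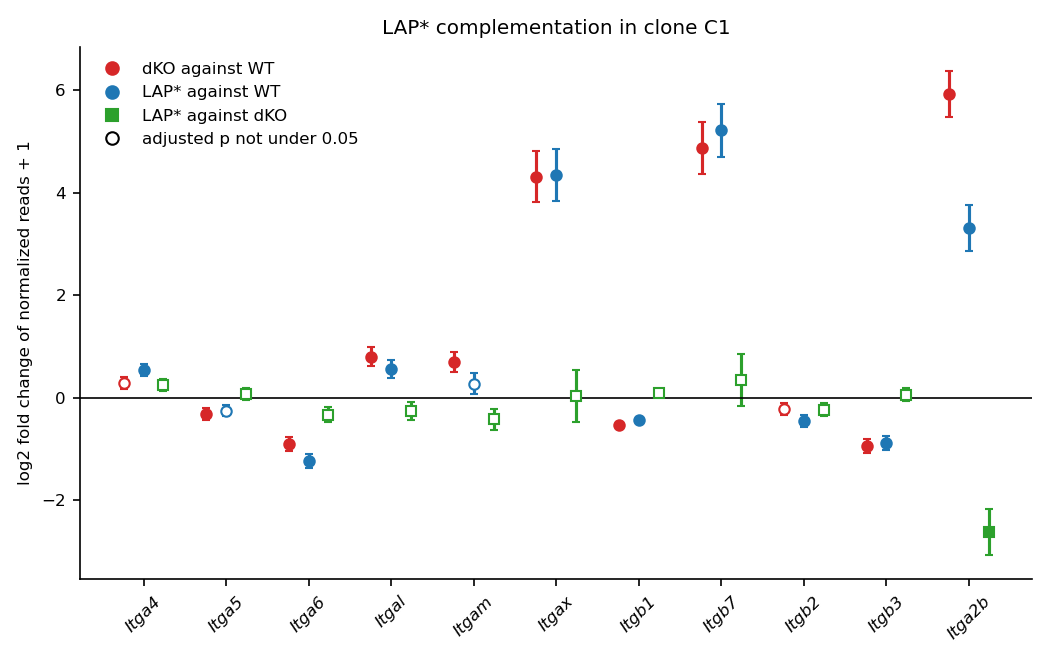
Log2 fold change of normalized reads + 1 in C1 for dKO against WTFL, LAP* against WTFL and LAP* against dKO cells, for the 10 integrin genes and Itga2b, with SE as whiskers; filled points have a limma adjusted p under 0.05. The LAP* against dKO points of the 10 genes lie between -0.42 and 0.35 and none is filled, while that of Itga2b is filled at -2.62.

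None of the 10 genes passed the test in LAP* against dKO cells, a comparison in which few genes of any kind passed. By limma 0 of 10 were called, where 4.46% of genes tested were called (1.43% higher and 3.03% lower). Likewise edgeR and DESeq2, which called 4.73% and 6.21% of genes, called 0 of the 10. With such shares, 0 of 10 does not set the integrin genes apart from other genes. At an unadjusted p under 0.05 the count was 1 (Itga6), where 17.9% of genes passed. Itgb7 held 499.8, 686 and 737 normalized reads in LAP* libraries, a log2 difference of 0.35 ± 0.51 from dKO cells (limma adjusted p = 0.79). Itgax held 44.7, 83.0 and 119, a difference of 0.04 ± 0.50 (limma adjusted p = 0.99). The LAP* libraries of both genes overlapped the dKO libraries and lay above every WTFL library of C1.
Itga6 held 306, 337 and 358 in LAP* libraries, below every dKO library and so farther from WTFL cells (-0.33 ± 0.14; limma adjusted p = 0.22). Itgal held 1295, 1407 and 1194 (-0.25 ± 0.18; limma adjusted p = 0.51). Itgam held 1085, 1369 and 1476 (-0.42 ± 0.20; limma adjusted p = 0.29). For these last 2 genes the mean of LAP* cells lay between those of WTFL and dKO cells, and neither difference passed.
Itgb1 held 3938, 4046 and 4017 (0.10 ± 0.06; limma adjusted p = 0.37), above every dKO library and below every WTFL library of C1. The remaining 4 genes, Itga4, Itga5, Itgb2 and Itgb3, differed from dKO cells by 0.25 ± 0.12, 0.07 ± 0.11, -0.23 ± 0.12 and 0.06 ± 0.13.

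Against WTFL cells, LAP* cells gave 4 higher calls (Itgb7, Itgax, Itgal and Itga4) and 4 lower calls (Itga6, Itgb3, Itgb2 and Itgb1), where 32.5% of genes tested were called (14.2% higher and 18.3% lower). Itgb7 stood at 5.21 ± 0.51 (limma adjusted p = 9.3e-07; 5.97 and 4.58 without WTFL replicate 2 and 3) and Itgax at 4.35 ± 0.50 (limma adjusted p = 5.3e-06). Itga4 was called here, at 0.55 ± 0.12 (limma adjusted p = 0.0022), with LAP* libraries at 2631, 3462 and 3537 normalized reads. Itgb2 was called here as well, at -0.45 ± 0.12 (limma adjusted p = 0.0089), with LAP* libraries at 6067, 5476 and 5474. The call of Itgal, at 0.56 ± 0.18 (limma adjusted p = 0.024), was lost without WTFL replicate 3 or LAP* replicate 1 or 2 (up to 0.088). Itga5 and Itgam, called in dKO against WTFL cells of C1, were not called in LAP* against WTFL cells (-0.25 ± 0.11 and 0.28 ± 0.20; limma adjusted p = 0.11 and 0.32). Without 1 library the Itgam value ran from 0.079 to 0.45 and was not called. The comparisons share the WTFL libraries, so their likeness is not independent evidence.
Of the marker lists, all 8 neutrophil markers were called lower in LAP* than in dKO cells, with sums of 35437 to 40007 normalized reads in LAP* libraries and Retnlg at 0, as in WTFL cells of C1. Of the 6 tested eosinophil markers 5 were called lower, with sums of 1038 to 2054, and of the 5 tested mast cell and basophil markers 1 was called lower, with sums of 1094 to 1309.5. Their part in the integrin values was not tested.

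The other 16 integrin chains listed had 7 genes past the filter on low values, with 2 called higher and 2 lower in C1 and 2 higher and 1 lower in C2. Itga2b, the alphaIIb chain that pairs with beta3, held 2.68, 4.51 and 1.02 normalized reads in WTFL and 217, 264 and 156 in dKO libraries of C1. In C2 it held 5.98, 24.1 and 17.4 and 187, 109.8 and 174. It rose in both clones (5.92 ± 0.45 and 3.38 ± 0.45; limma adjusted p = 5.0e-08 and 2.3e-05), including C1, where its partner gene Itgb3 fell. In LAP* cells it held 39.6, 22.1 and 41.0, lower than in dKO cells (-2.62 ± 0.45; limma adjusted p = 0.0031).
Itga1, whose product binds collagen with beta1, fell in C1 and in C2. In C1 it went from 274 ± 74.1 to 64.6 ± 8.22 (-2.04 ± 0.26; limma adjusted p = 1.3e-05). In C2 it went from 58.1 ± 9.20 to at most 2 reads in any dKO library, which is at least 18.05-fold lower against a floor of 3 reads per library. Itgb5, a partner of alphaV, rose in C2 (1.60 ± 0.12; limma adjusted p = 6.7e-08) and stood at -0.23 ± 0.12 in C1 (limma adjusted p = 0.15). Itgav fell in C1 (-0.49 ± 0.14; limma adjusted p = 0.011) and stood at -0.10 ± 0.14 in C2 (limma adjusted p = 0.59).
Itga10, Itga8 and Itgad held at most 45.1 normalized reads in any library, and Itga10 was called higher in C1 (0.90 ± 0.27; limma adjusted p = 0.016), a call lost without WTFL replicate 3 or dKO replicate 2 (limma adjusted p = 0.057 and 0.061), and stood at 0.38 ± 0.27 in C2, with overlap (limma adjusted p = 0.29). Itga8 was not called in C1 (0.81 ± 0.48; limma adjusted p = 0.20) or C2 (0.77 ± 0.48; limma adjusted p = 0.22). Over the C1 fits without 1 library it ran from 0.43 to 1.46, called only without dKO replicate 1, at 1.46 (limma adjusted p = 0.011). It was called in C2 with quantile normalization (limma adjusted p = 0.043). Itgad was not called in C1 (1.00 ± 0.58; limma adjusted p = 0.19) or C2 (1.25 ± 0.58; limma adjusted p = 0.10), though in C1 it was called without WTFL replicate 3, at 1.58 (limma adjusted p = 0.042), and stood at 0.41 without WTFL replicate 2 and at 1.55 without dKO replicate 1. It was also called in C2, where its groups do not overlap, with quantile normalization (0.029) and with only the 2 groups fitted (0.044). Exons of Itga1, Itga10 and Itgad overlap other genes on the same strand, so their values are less certain. Itgae, the other alpha partner of beta7, was not tested and stood at 1.65 ± 1.82 in WTFL cells of C1, 8.45 ± 3.49 in its dKO cells and 1.87 ± 1.57 in its LAP* cells. In C2 it stood at 1.70 ± 2.20 in WTFL and 3.47 ± 1.33 in dKO cells, with overlap. Itga3, Itga7, Itga9 and Itgb4 had reads but did not pass the filter, and Itga2, Itga11, Itgb6 and Itgb8 had no read in any library. Itgb2l, a beta2-like chain named after its values were seen, rose in C1 from 75.1 ± 20.5 to 1164 ± 89.0 normalized reads (3.97 ± 0.23; limma adjusted p = 2.3e-09). In C2 it stood at 0.45 ± 0.23 (limma adjusted p = 0.13), and at 0.14 to 0.63 without 1 library. It was lower in LAP* than in dKO cells (-1.80 ± 0.23; limma adjusted p = 0.00028).

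Genes for proteins that switch integrins on and off were called in both directions. The activation list of 14 genes holds talin, kindlin and the Rap1 arm, and also Rasgrp4, which acts on Ras. Of these 14, 11 were tested, with 3 called higher and 3 lower in C1 (median log2 fold change -0.10). In C2 4 were called higher and 1 lower (median 0.15), and 1, Rasgrp4, was lower in LAP* than in dKO cells. Rasgrp4, a guanine nucleotide exchange factor for Ras, rose from 524 ± 84.7 to 1581 ± 158 normalized reads in C1 and from 173 ± 34.6 to 693 ± 81.0 in C2 (1.60 ± 0.15 and 2.01 ± 0.15; limma adjusted p = 7.1e-07 and 6.6e-08). It was lower in LAP* than in dKO cells (-0.75 ± 0.15; limma adjusted p = 0.0099; without dKO replicate 2, 0.052). Tln2, a talin, fell in C1 (-2.23 ± 0.23; limma adjusted p = 1.7e-06) and in C2 (-0.65 ± 0.23; limma adjusted p = 0.037), where the call was lost with quantile normalization, with only the 2 groups fitted (limma adjusted p = 0.078 and 0.098) and when WTFL replicate 2 or 3 or dKO replicate 1 or 2 was left out (up to 0.18). Of the 10 inhibitor genes, all tested, 4 were called higher in C1 (median 0.20), 2 lower in C2 (-0.14) and 1 lower in LAP* than in dKO cells, with 0 called the same way in both clones. Dok1, an adaptor that competes with talin, was lower in LAP* than in dKO cells (-0.40 ± 0.09; limma adjusted p = 0.024; without dKO replicate 2 or 3 or LAP* replicate 2 or 3, up to 0.10).

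Of 21 genes of the adhesion complex and its kinases, 18 were tested, with 5 higher and 5 lower calls in C1 (median log2 fold change -0.07), 3 higher and 5 lower in C2 (-0.06) and 3 lower in LAP* than in dKO cells. Fgr, a Src-family kinase of myeloid cells, rose in C1 (1.11 ± 0.29; limma adjusted p = 0.0073) and C2 (1.60 ± 0.29; limma adjusted p = 0.00046) and was lower in LAP* than in dKO cells (-1.41 ± 0.29; limma adjusted p = 0.012; without dKO or LAP* replicate 3, up to 0.064). Cyth1, cytohesin-1, which binds the beta2 tail, fell in both (-0.69 ± 0.10 and -0.80 ± 0.10; limma adjusted p = 3.5e-05 and 8.1e-06). Syk was lower in LAP* than in dKO cells (-0.26 ± 0.07; limma adjusted p = 0.036), a call lost without a filter on low values (0.073), with only the 2 groups fitted (0.10) and in each fit without 1 library but the one without LAP* replicate 1 (up to 0.15).

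Of 14 ligand genes, 10 were tested, with 1 higher and 5 lower calls in C1 (median log2 fold change -0.77), 3 higher and 4 lower in C2 (-0.49) and 1 higher in LAP* than in dKO cells. Lamc1, a laminin chain and thus part of a ligand of alpha6, held 54.9, 75.8 and 26.5 normalized reads in WTFL libraries of C1 and at most 1 read in any dKO library, at least 15.4-fold lower. In C2 it went from 243, 363 and 306 to 5.23, 0.970 and 3.22 (-6.33 ± 0.48; limma adjusted p = 6.1e-08). Cdh1, E-cadherin, a ligand of the alphaE and beta7 pair, rose in C1 (1.81 ± 0.32; limma adjusted p = 0.00036) and C2 (4.19 ± 0.32; limma adjusted p = 8.2e-08). Fn1, fibronectin, went from 9.41 ± 8.03 normalized reads in dKO to 104 ± 42.9 in LAP* cells (3.51 ± 0.75; limma adjusted p = 0.014; lost at a pseudocount of 0.1 (0.072) and without replicate 1 or 2 of dKO or 2 or 3 of LAP*, up to 0.071). Without dKO replicate 3 the Fn1 value was 4.10. Of 9 surface partners, all tested, 2 were called higher and 4 lower in C1 (median -0.21), 1 higher and 5 lower in C2 (-0.28) and 0 in LAP* against dKO cells. The tetraspanin Cd9 fell (-2.04 ± 0.35 and -2.75 ± 0.35; limma adjusted p = 0.00023 and 1.5e-05) and Cd63 rose (0.84 ± 0.11 and 0.68 ± 0.11; limma adjusted p = 1.9e-05 and 0.00015).

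Of 10 transcription factors known to act on these chains, all tested, 5 were called higher and 2 lower in C1 (median log2 fold change 0.36), 5 higher and 0 lower in C2 (0.27) and 0 in LAP* against dKO cells. Gata2, a factor of mast cells and progenitors, rose from 9.77 ± 4.30 to 260.2 ± 9.05 normalized reads in C1 and from 67.5 ± 8.99 to 549 ± 94.8 in C2 (limma adjusted p = 8.1e-10 and 1.4e-07), and it also stands in the mast cell and basophil list. Cebpe, another C/EBP family gene, rose from 408 ± 55.8 to 2107 ± 143 in C1 and from 505 ± 10.5 to 2166 ± 51.9 in C2 (limma adjusted p = 8.0e-11 and 3.6e-10), and held 1809 ± 257 in LAP* cells. Over all genes tested the median was -0.01 in C1 and -0.03 in C2, beside which the medians of these lists stand.

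The genes whose pattern over the 15 libraries was most like that of Itgb7 were Ckap4 (Pearson r = 0.977 on log2 values), Tdrd5 (0.963) and Gpr174 (0.962). For Itga6, the member with the largest mean fall, they were Optn (0.976), Ccl6 (0.970) and Tbcel (0.969). These 15 libraries come from 5 lines, so the correlations describe differences between lines and carry no test.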

How the data were processed

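RNA of each line was sequenced paired-end from stranded mRNA libraries; per the labels, reads were aligned to mm10 with STAR 2.5.3a, counted with HTSeq 0.10.0 and normalized with DESeq2 1.26.0. The counting mode, strand setting and annotation are not given in the sources used here. The authors deposited 1 table of signal values, reads divided by a size factor per library; 100% of values came out as whole reads (tolerance 0.1), with 22.4% to 26.2% of reads on 5 rows that name no gene, which were left out. In addition, 3 columns, whose names mark LAP* cells of C2, matched no sample in the labels used here and were not analysed. Of 26111 genes with no symbol in the table, 26006 were named by GENCODE vM21.

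Genes that reached 10 normalized reads in 3 or more libraries (12673 of 24520 with any read) were fitted with limma 3.58.1 (R 4.3.3, trend) on log2(value + 1). All 15 libraries entered 1 fit, with a mean for each group (10 residual degrees of freedom), followed by Benjamini-Hochberg adjustment over all genes tested in each of 6 comparisons. Since the 3 libraries of a group are samplings of 1 line, p-values measure the spread between these samplings. A call is an adjusted p under 0.05. Fold changes against a group at or under 3 reads in each library are bounds against that floor, which covers counting error only. Same-group libraries differed by more than sampling noise (chi-square per degree of freedom 5.36 to 33.9), and none was merged. Alternatives were pseudocounts of 0.1 and 5, no filter, a block for the replicate number, quantile normalization, fits restricted to the groups of a comparison, edgeR 4.0.16 and DESeq2 1.42.0 on the recovered reads, and leaving out each library of the groups compared. The fits were also run on simulated counts with the same spread setting for every gene. That run does not cover the uneven spread of these libraries. Promoter windows came from RefSeq.

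All 10 integrin genes are named. From each of 7 pathway lists the text names at most 4 genes, up to 2 with the largest mean dKO effect among those called the same way in both clones and up to 2 with the largest LAP* effect among those called, besides all other integrin chains with a read. The 10 genes, the pathway lists, the 12 marker lists and the tests were chosen with earlier results of these data known. Values of some single marker genes are not reported here.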

Additional observations from a re-analysis of the deposited data

Results flagged for a closer look

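For 5 integrin genes the change in dKO against WTFL cells differed between the clones by limma's test of the difference itself. Values are the effect in C2 minus that in C1 on the log2 scale. Itgal differed by -2.14, rising in all 3 dKO libraries of C1 above the WTFL libraries and falling in all 3 of C2. Itgb3 differed by 1.76 in the opposite sense, and for both genes the WTFL cells of C2 started lower. Itgax differed by -2.50, with a rise in each clone that was smaller in C2, where WTFL cells held more of it. Itga5 differed by -0.50, a call that 7 of the fits without 1 library lost. Itgb1 differed by 0.35, a call that quantile normalization lost. Each clone is 1 parental line and 1 dKO line, so differences between clones and between mice cannot be told apart.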

How the results depend on the processing

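Each of the 60 fitted values of the 10 genes (6 comparisons each) was recomputed under 8 alternatives. Of these 480 values, 471 kept their direction and their side of the threshold, 5 calls were lost, 2 were gained and 2 values changed sign, and of 420 values without 1 library 383 kept both, 23 calls were lost, 2 were gained and 12 values changed sign. The difference of the Itgb7 effect between clones, not called, turned to 0.33 in edgeR and 0.27 in DESeq2. Without 1 library, the uncalled values that changed sign ranged from -0.046 to 0.18 for Itga4, -0.14 to 0.23 for Itgam and -0.018 to 0.21 for Itgb2 (dKO against WTFL in C2), -0.996 to 0.39 for Itgb7 (difference between clones), -0.018 to 0.17 for Itga5 and -0.32 to 0.42 for Itgax (LAP* against dKO) and -1.09 to 0.30 for Itgb7 (WTFL of C2 against C1). Quantile normalization left 1 gene with a higher effect in C2 in place of 2, and no filter on low values left 1 gene lower in both clones in place of 3. Without 1 library, the genes higher in both clones numbered 1 to 2 and those higher in WTFL cells of C2 1 to 2. Over all genes, LAP* against dKO gave 181 higher and 384 lower calls, 86 higher with only the groups compared, and 75 to 175 higher and 196 to 312 lower without 1 library. The cause of these changes was not tested. Ranks of level were also taken without division by length, which moved Itga4 to rank 3 in every group and Itgam to rank 4 to 6, and in WTFL cells of C2 put Itgax at rank 9 and Itgb7 at rank 10, with Itgb7 at rank 7 in dKO and LAP* cells; other genes moved as well.

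With the replicate number as a block, all 60 values kept their direction and side (Itgb7 in C1, 4.87), and LAP* against dKO gave 150 higher calls over all genes and lost the lower call of Syk (limma adjusted p = 0.060). Whether same-numbered libraries belong together is not settled by these values. Of 30 same-numbered pairs 5 had deviations correlated above 0.1 (-0.32 to 0.30), and 8 of 15 libraries correlated best with their own number out of 3. Depth limits Itgax and Itgb7 in WTFL cells, which rest on few reads.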
